A study of Mus musculus with 4 samples.

Results

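The comparison was of mouse embryonic fibroblasts cocultured with mesenchymal stem cells (MSCs) and given QNZ, a small-molecule inhibitor of NF-κB activation, with cocultured fibroblasts that received no QNZ. It used 1 library of each, and it was made over the 11141 of 21839 gene symbols that had an FPKM (fragments per kilobase of gene and per 1000000 reads) of at least 1 in either of these libraries. Of these, 199 passed only through the library with QNZ and 295 only through the library without it. At the edge of the filter, Bbs1 was just inside with a highest FPKM of 1.0006, and Zbed5 just outside with 0.9999.

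The RNA-seq series held 4 libraries of wild-type fibroblasts at 48 h, which were cocultured with QNZ, cocultured without QNZ, alone with QNZ and alone without QNZ. The fibroblasts came from C57BL/6 embryos at day 13.5 and grew above a membrane insert with 0.4 µm pores, so that MSCs from C57BL/6 bone marrow shared the medium but not direct contact. Neither the dose of QNZ nor the number of embryos was given in the sources used here. There was no replicate of any condition, so the values describe these libraries, and no difference could be tested against the spread between cultures. The difference of log2(FPKM + 1), with QNZ minus without, was taken for each gene, and those of at least 1 in size were counted as higher or lower. Ratios of counts per 1000000 reads (CPM) are given with exact 95% Clopper-Pearson intervals, which cover counting error only.

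NF-κB is a family of dimeric transcription factors held in the cytoplasm by inhibitory IκB proteins until cytokines such as IL-1 and TNF trigger IκB degradation. In fibroblasts its targets include chemokines, interleukin 6, nitric oxide synthase and the genes of its own inhibitors, which form a feedback loop. Sterol synthesis is driven by SREBP transcription factors, which are released for cleavage when membrane sterols are low and are retained by INSIG proteins when they are high. The contractile and matrix genes of an activated fibroblast are driven in large part by serum response factor with its cofactor MRTF and by TGF-β.

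The promoters below are from genes of the 3 lists described most fully, and each shows a motif of a factor linked to its list or, in Insig1, of that factor's partner. The sequences are from RefSeq (GRCm38.p6, the build mm10) and run from 250 bases before to 50 bases after the start of the gene, written on the gene's own strand. In Insig1, at chr5:28071162-28071461 on the plus strand, the capitals mark a CCAAT box, the site of NF-Y, which assists SREBP. In Hmgcs1, at chr13:119690101-119690400 on the plus strand, they mark 1 sterol response element (TCACNCCAC) and 4 CCAAT boxes. In Nfkbia, at chr12:55492598-55492897 on the minus strand, they mark the κB consensus, and in Myl9, at chr2:156775214-156775513 on the plus strand, the CArG box bound by serum response factor.
Insig1: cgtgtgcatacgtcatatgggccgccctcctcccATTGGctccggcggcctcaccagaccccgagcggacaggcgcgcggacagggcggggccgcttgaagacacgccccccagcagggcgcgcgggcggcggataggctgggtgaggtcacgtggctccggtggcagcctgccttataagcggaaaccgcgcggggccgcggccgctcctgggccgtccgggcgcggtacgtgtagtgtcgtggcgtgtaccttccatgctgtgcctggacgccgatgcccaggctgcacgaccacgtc
Hmgcs1: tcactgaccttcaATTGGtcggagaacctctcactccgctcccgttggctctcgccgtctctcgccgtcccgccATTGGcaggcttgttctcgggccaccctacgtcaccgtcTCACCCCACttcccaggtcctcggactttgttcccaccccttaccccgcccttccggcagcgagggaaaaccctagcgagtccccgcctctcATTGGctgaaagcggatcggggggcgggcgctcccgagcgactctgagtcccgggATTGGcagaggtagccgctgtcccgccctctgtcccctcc
Nfkbia: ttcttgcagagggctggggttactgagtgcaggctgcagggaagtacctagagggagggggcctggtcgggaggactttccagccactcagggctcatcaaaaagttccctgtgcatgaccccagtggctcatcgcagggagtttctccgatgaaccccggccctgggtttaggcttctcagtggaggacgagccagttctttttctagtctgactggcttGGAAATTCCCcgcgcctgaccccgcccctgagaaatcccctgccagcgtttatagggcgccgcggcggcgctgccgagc
Myl9: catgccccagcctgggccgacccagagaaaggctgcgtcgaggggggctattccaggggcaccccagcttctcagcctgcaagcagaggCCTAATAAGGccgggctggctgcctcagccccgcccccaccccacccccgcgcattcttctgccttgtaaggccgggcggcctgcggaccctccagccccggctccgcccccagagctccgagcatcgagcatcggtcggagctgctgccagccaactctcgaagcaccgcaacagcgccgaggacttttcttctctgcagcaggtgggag

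Both strands were searched for each motif in the windows of 27025 gene symbols, which include 8876 of the measured genes. The κB consensus was present in 17 of the 28 measured NF-κB target genes with a window (60.71%), against 12.66% of the measured genes and 9.55% of all symbols. Among the 63 genes lower with QNZ that had a window it was present in 7, and this share of 11.11% was near that of the measured genes. Among the 18 higher ones it was present in 1. The CCAAT box was present in 19 of 23 cholesterol synthesis genes (82.61%), against 43.2% of the measured genes and 41.06% of all symbols. The sterol response element was present only in Hmgcs1 of these 23, against 1.408% of the measured genes and 1.436% of all symbols. The CArG box was present in 4 of 22 contractile genes (18.18%), against 1.555% and 1.806%. Of the other motifs searched, the E-box TCACGTGA of lysosomal genes was present in 2 of the 18 higher genes, in 2.343% of the measured genes and in 1.125% of all symbols. The amino acid response element TGATGNAAN was present in 3 of the 18, in 2.648% of the measured genes and in 4.496% of all symbols. The core of the antioxidant response element was present in 8 of the 18, in 35.69% of the measured genes and in 30.76% of all symbols. These matches describe the windows and do not show binding.

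The libraries held 13153696 reads on genes with QNZ and 14872767 without, and 15778488 and 15407979 in fibroblasts alone with and without QNZ. Fibroblast identity was present in both cocultured libraries, with 12 of 14 fibroblast markers at an FPKM of at least 1 and a summed FPKM of 2058 with QNZ and 2807 without, while S100a4 and Tcf21 were at or near 0. Markers of macrophages and blood summed to 11.8 with QNZ and 17.9 without, over 16 genes of which 3 reached an FPKM of 1. Skeletal muscle markers summed to 1.03 and 2.41. Bone marrow stromal markers, which fibroblasts share in part, summed to 1287 with QNZ and 1192 without. Of these sums the BMP antagonist gene Grem1 gave 947 with QNZ and 717 without. Of the 14 measured, 8 lay below 0 and 6 above, and the median difference was -0.13. Fewer cells of one type and less RNA per cell cannot be told apart in such bulk libraries.

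With QNZ, 35 genes were counted as higher (0.314% of the 11141) and 86 as lower (0.772%). By list, the higher genes included 10 of cholesterol synthesis, 4 mitochondrially encoded genes and 3 of the ATF4 response. The lower genes included 7 of collagens and matrix, 5 contractile genes and 2 NF-κB targets. The lists were chosen with earlier results of these data known. Their counts and medians therefore describe these libraries and are no independent support. The counting interval of the ratio did not include 1 for 31 of the 35 and 83 of the 86. With a pseudocount of 5 in place of 1 the counts were 9 and 24, and with a pseudocount of 0.1 they were 87 and 206. Over all measured genes the median difference was 0.05, 6629 lay above 0 and 4512 below, 92.2% of genes differed by less than 0.5, and the 5th and 95th percentiles were -0.49 and 0.42. Across genes, which are not independent replicates, the levels of both libraries had a Pearson correlation of 0.982 on the log2(FPKM + 1) scale.

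**Figure D1:**
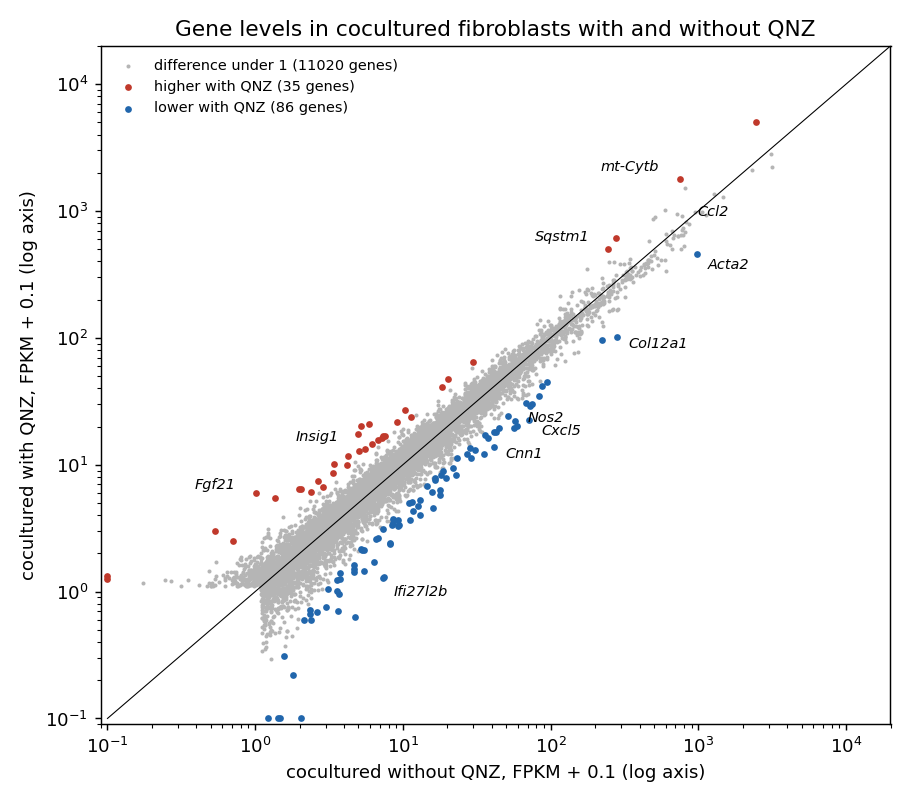
FPKM + 0.1 of each of the 11141 measured genes in cocultured fibroblasts with QNZ (vertical, log axis) and without QNZ (horizontal, log axis), with the line of equal levels. The 35 genes counted as higher (red) and the 86 counted as lower (blue) stand off a narrow band in which 92.2% of genes differ by less than 0.5.

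Most NF-κB target genes lay below 0, and the size of the difference varied widely from target to target. Of 46 listed, 42 were measured. None was counted as higher and 2 as lower, against 0.772% of all measured genes counted as lower. Of the 42, 29 lay below 0, and their median difference was -0.22, against 0.05 over all measured genes.

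Cxcl5, a neutrophil-attracting chemokine, had an FPKM of 22.3 with QNZ, against 71.4 without. Its difference was -1.64 and the ratio of CPM was 0.312 (0.283 to 0.343). Nos2, the inducible nitric oxide synthase, had 20.2 with QNZ, against 59.3 without, a difference of -1.51 and a ratio of 0.340 (0.318 to 0.363). These were the 2 counted members, and both stood among the 10 largest falls of all named genes. In fibroblasts alone Nos2 was low, with 1.62 with QNZ and 2.19 without, whereas Cxcl5 had 19.2 and 34.5.

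The next members are named after their values were seen. Cxcl1, a related chemokine, had 35.2 with QNZ and 68.2 without, and the cytokine gene Il6 had 14.5 with QNZ and 27.9 without. Their differences of -0.94 and -0.90 were just under the size that was counted. The feedback inhibitor gene Nfkbia, whose κB motif is shown above, had 82.4 with QNZ and 100.02 without, a difference of -0.28. Tnfaip3, the deubiquitinase A20, had 4.84 and 6.05, a difference of -0.27.

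Several targets lay at or above their level without QNZ. The monocyte chemokine Ccl2, among the most abundant chemokine genes here, had 824 with QNZ and 830 without, with a ratio of 0.992 (0.968 to 1.02). Ccl7 had 921 with QNZ and 778 without. Tnfaip2 and the matrix metalloproteinase Mmp3 had the highest differences of the list, 0.54 and 0.53. Traf1, Tnf, Csf2 and Cfb did not reach an FPKM of 1.

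The genes that carry the NF-κB signal, as distinct from its targets, showed little difference. Of 34 measured pathway components, none was counted in either direction, and their median was 0.06. The 6 largest differences were those of the IL-1 receptor gene Il1r1 (-0.68), the kinase gene Map3k14 (-0.61), the adaptor gene Traf5 (-0.45), Nfkbil1 (0.44), the receptor gene Tlr4 (0.36) and the kinase-binding protein gene Tab1 (0.31). Il1r1 had an FPKM of 14.6 with QNZ and 24.0 without.

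The lists of chemokines and of interleukins, which overlap the NF-κB list in part, each had 1 counted gene. Over all measured genes 0.772% were counted as lower. Of 20 measured chemokines this was Cxcl5, already counted among the NF-κB targets, and the median was -0.20. Of 21 interleukins and related cytokines, Il33, an alarmin of stromal cells, was counted as lower, with an FPKM of 2.48 with QNZ and 6.48 without (difference -1.10), and the median was -0.19. Of 41 interferon-stimulated genes none was counted, 35 lay below 0 and the median was -0.15. Their largest falls were those of the GTPase genes Gbp2 (-0.70), Igtp (-0.60) and Gbp3 (-0.57) and of the antiviral gene Mx1 (-0.63), none of which reached the counted size.

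Cholesterol synthesis had the highest number of counted members of any list on the higher side. Of 34 listed genes 33 were measured, 10 were counted as higher and none as lower, 32 lay above 0, and the median was 0.79. These 10 made up a large part of the 35 higher genes, which were 0.314% of all measured genes. Since the list was chosen with earlier results of these data known, this contrast is a description only.

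Insig1, which retains the SREBP complex in the endoplasmic reticulum and is itself an SREBP target, had an FPKM of 20.0 with QNZ, against 5.09 without. Its difference was 1.79 and its ratio of CPM 3.93 (3.39 to 4.56). The late-pathway oxidase Msmo1 had 17.5 with QNZ and 4.90 without, a difference of 1.64. Insig1 had the largest difference of the list.

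Members from each stage of the pathway were among the rest. Idi1, the isopentenyl isomerase, had 5.36 with QNZ and 1.27 without (1.49), with 247 and 66 reads. The lanosterol demethylase Cyp51 had 27.1 with QNZ and 10.3 without (1.32). Squalene synthase Fdft1 (1.17), mevalonate decarboxylase Mvd (1.11), the fatty acid elongase Elovl6 (1.10) and squalene epoxidase Sqle (1.08) were also counted. Hmgcs1, whose sterol response element is shown above, had 18.0 with QNZ and 8.58 without, and its difference of 0.99 lay just under the counted size. Srebf2, the SREBP gene itself, had 38.9 with QNZ and 20.7 without (0.88). Pmvk was the only measured member below 0, at -0.18. Reads of Idi1, Cyp51, Fdft1 and Elovl6 could include some from genes that overlap them on the other strand in GENCODE M21, since the strand setting of the counting was not given.

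Abca1, the transporter that exports cholesterol from cells, was among the 10 largest falls. It had an FPKM of 3.94 with QNZ and 12.9 without, a difference of -1.50 and a ratio of 0.305 (0.276 to 0.335).

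**Figure D2:**
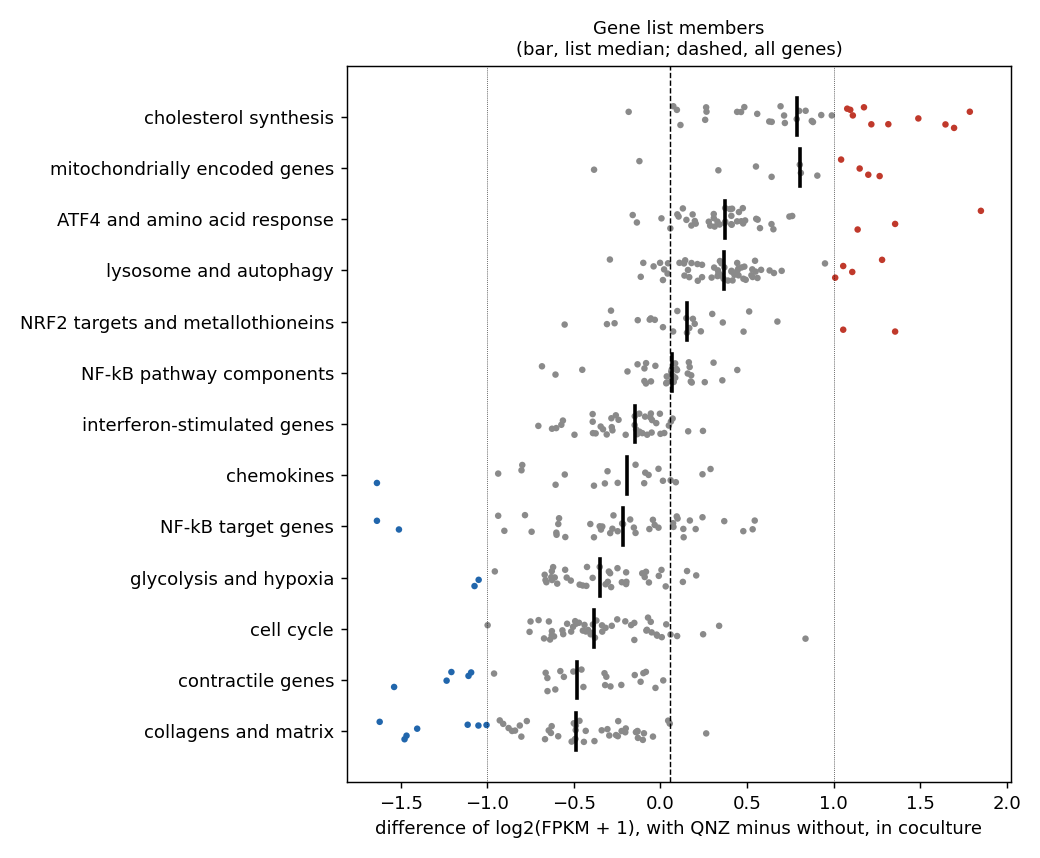
Difference of log2(FPKM + 1), with QNZ minus without, in coculture (horizontal) for each measured member of 13 gene lists (points, red or blue where counted), with the list median (bar) and the median of all measured genes (dashed). The medians run from 0.81 in mitochondrially encoded genes and 0.79 in cholesterol synthesis to -0.49 in collagens and matrix, and no member of the NF-κB pathway components reached 1 in size.

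The mitochondrially encoded genes, which code for core subunits of the respiratory chain, had the highest median in the plot of gene lists. Of 12 measured, 4 were counted as higher, against 0.314% of all measured genes, and none as lower. Of the 12, 10 lay above 0 and 2 below, the lowest at -0.38, and the median was 0.81. The cytochrome b gene mt-Cytb had an FPKM of 1802 with QNZ and 749 without (1.26), and mt-Co1 had 5023 and 2438 (1.04). The others counted were mt-Co2 (1.20) and mt-Nd4 (1.15), which overlaps mt-Nd4l. Mitochondrially encoded genes took 1.49% of reads with QNZ and 0.738% without, and 0.580% and 0.291% in fibroblasts alone with and without QNZ. Reads of these genes can also match nuclear copies, and how such reads were assigned was not given. By contrast, of 69 measured nuclear genes of the respiratory chain none was counted and the median was 0.00.

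Most genes of the ATF4 response to amino acid shortage lay above 0. Of 43 measured, 3 were counted as higher, against 0.314% of all measured genes, and none as lower. Of the 43, 41 lay above 0, against 6629 of the 11141 measured genes, and the median was 0.37. Fgf21, a stress-induced hormone, had the largest rise of all named genes, with an FPKM of 5.92 with QNZ and 0.919 without, from 74 and 13 reads. Its difference was 1.85 and its ratio 6.44 (3.54 to 12.7). The cystine transporter gene Slc7a11 had 10.0 and 3.31 (1.35), and cystathionine γ-lyase Cth 13.1 and 5.42 (1.14). Among 24 measured NRF2 targets and metallothioneins, Slc7a11 and Sqstm1 were counted as higher and the median was 0.15.

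Sqstm1, the autophagy receptor p62, had an FPKM of 506 with QNZ and 243 without, a difference of 1.05. The Rag GTPase gene Rragd, which links lysosomal nutrient sensing to mTORC1, had 11.6 and 4.17 (1.28), and Fnip2, whose product acts on Rag GTPases together with folliculin, had 15.5 and 6.67 (1.11). After these had been seen, a list of 60 lysosome and autophagy genes that holds all 3 was added. Of 59 measured, 4 were counted as higher, against 0.314% of all measured genes, the fourth being the peptidase gene Dpp7 (1.01). The other 3 led to the list, so this count is not support for it. Of the 59, 54 lay above 0, against 6629 of the 11141 measured genes, and the median was 0.36. With the trend of the difference with gene length removed, 2 members of the list were counted as higher.

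Contractile genes of the myofibroblast lay mostly below 0. Of 26 measured, 5 were counted as lower, against 0.772% of all measured genes, and none as higher. Of the 26, 25 lay below 0, against 4512 of the 11141 measured genes, and the median was -0.48. Acta2, smooth muscle α-actin, had an FPKM of 456 with QNZ, against 985 without. The difference was -1.11 and the ratio 0.463 (0.454 to 0.473). Calponin Cnn1 had 13.6 and 41.5 (-1.54), and the regulatory light chain gene Myl9, whose CArG box is shown above, had 96.4 and 224 (-1.21). Myh11, a smooth muscle myosin, had 0.910 and 3.50 (-1.23), and Lmod1, an actin nucleator, 12.1 and 26.9 (-1.09). The desmin gene Des was the only member above 0, with 2.67 and 2.63.

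Collagens and other matrix genes had a like median. Of 49 measured, 7 were counted as lower, against 0.772% of all measured genes, and none as higher. Of the 49, 46 lay below 0, and the median was -0.49. The 7 were the collagen genes Col3a1, Col12a1, Col11a1 and Col6a3 and the small leucine-rich proteoglycan genes Aspn, Ogn and Fmod.

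Col12a1, which sits on the surface of collagen fibrils, had an FPKM of 102 with QNZ, against 283 without, from 20392 and 64087 reads (-1.47). Col3a1, a fibrillar collagen of soft tissue, had 19.5 and 56.1 (-1.48), and Col6a3, of the pericellular matrix, 41.5 and 87.2 (-1.05). Col11a1 had 3.37 and 8.45 (-1.11). Aspn, which binds collagen and TGF-β, had 4.49 and 15.9 (-1.62), Ogn 3.56 and 11.1 (-1.40), and Fmod 8.81 and 18.7. Col1a1, the most abundant fibrillar collagen gene here and named after its value was seen, had 334 and 605, a difference of -0.86 that was not counted. Reads of Aspn could include some of Cenpp on the other strand, and those of Col3a1 some of a predicted gene on the same strand.

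**Figure D3:**
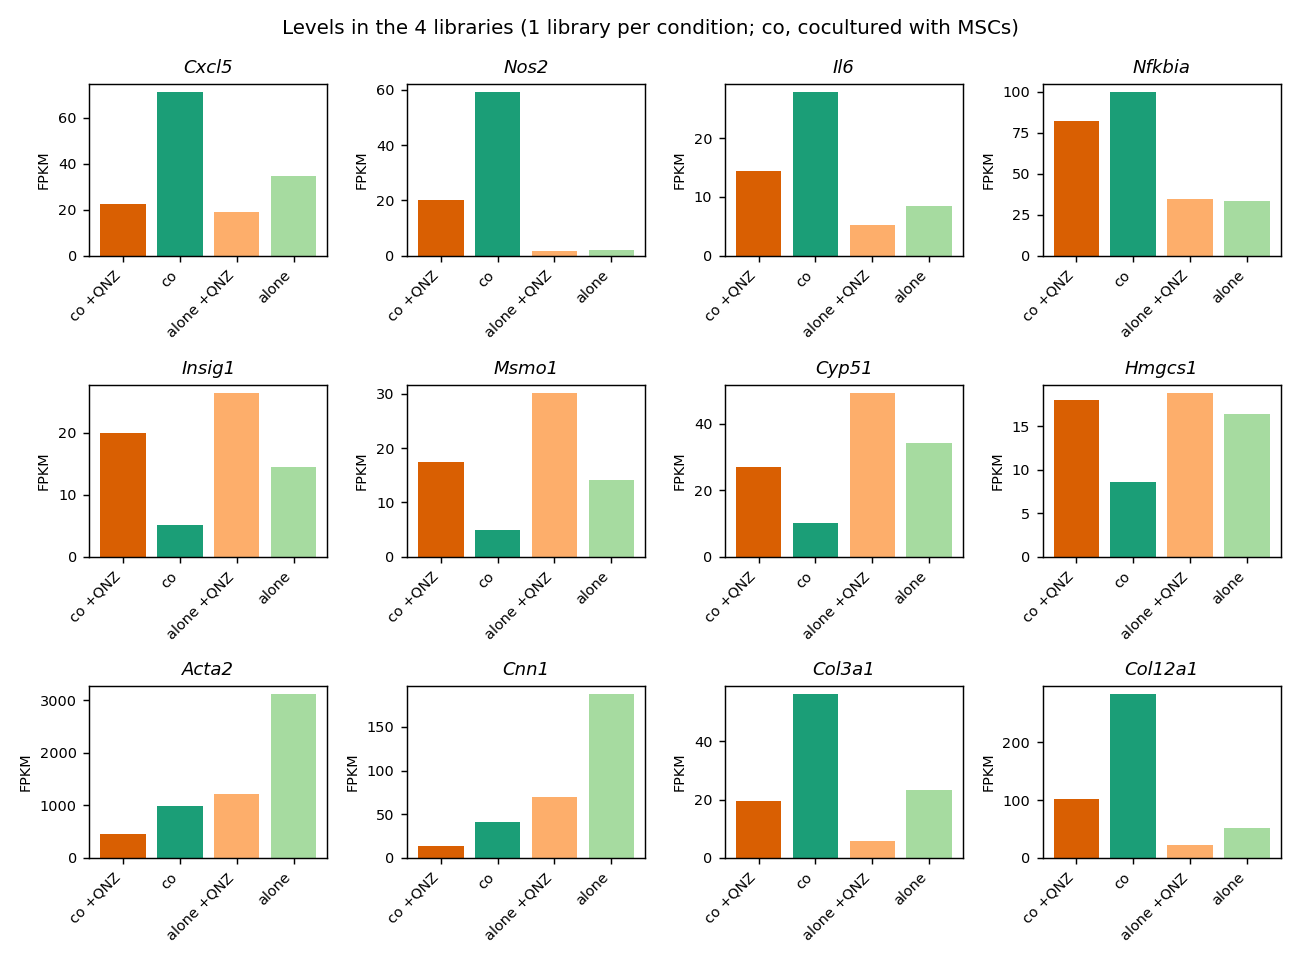
FPKM (vertical, from 0) of 12 genes in the 4 libraries, from left to right cocultured with QNZ, cocultured without, alone with QNZ and alone without (1 library each, so no error bars). Acta2 is lowest in the cocultured library with QNZ at 456, against 985 without it, and Insig1 is lowest in the cocultured library without QNZ at 5.09.

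Among the growth factors, 33 were measured, Fgf21 was counted as higher, and the matricellular gene Ccn5 (29.9 with QNZ, 75.2 without) and the placental growth factor gene Pgf (18.0 and 41.4) were counted as lower. For this and the next lists, the shares over all measured genes were 0.314% higher and 0.772% lower. The osteogenic ligand gene Bmp2 was counted as higher, with an FPKM of 6.33 with QNZ and 1.93 without (1.32), from 296 and 102 reads. Fst, which codes for follistatin, an activin and BMP antagonist, was counted as lower, with 5.95 and 15.7 (-1.27). Among 14 measured TGF-β and BMP ligands Bmp2 alone was counted, and among 13 BMP antagonists Fst alone. Of these 13, 9 lay below 0 and 4 above, and the median was -0.24. The highest, at 0.40, was Grem1, named after its value was seen, with 947 with QNZ and 717 without.

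None of 7 measured Wnt antagonists was counted, and their median was -0.50. Of these, 5 lay below 0 and 2 above, the highest at 0.43. Sfrp1 and Sfrp2, secreted decoys of Wnt ligands, had the largest differences, -0.98 and -0.94, followed by Dkk3 (-0.51) and Dkk2 (-0.50). Dkk1, a Wnt antagonist that binds LRP coreceptors, was too low to be measured by the filter, with 0 reads with QNZ and 21 without. A count of 0 allows up to 3 reads in the library, and the counting interval of the ratio reached up to 0.217. In fibroblasts alone it had 0 reads with QNZ and 2 without.

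Of 7 measured genes of the osteoblast lineage, Bmp2 alone was counted, against 0.314% of all measured genes counted as higher. The differences of the 7 ran from -0.94 to 1.32. Runx2, the osteoblast master regulator, had 4.75 with QNZ and 5.37 without. Sp7, which acts after it, had 2.26 with QNZ and 3.52 without, a ratio of 0.642 (0.498 to 0.824). Bglap had 2 reads with QNZ and 0 without, too few to compare. Yap1, the Hippo pathway effector, had 26.1 and 25.9, and the glycolytic enzyme Gapdh 77.3 and 83.2.

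Genes of glycolysis and hypoxia lay mostly below 0, with 36 of 41 below 0 and a median of -0.35. Of the 41, 2 were counted as lower, against 0.772% of all measured genes. These 2 were the oxygen sensor gene Egln3 (45.1 with QNZ and 94.5 without, -1.05) and Ankrd37 (1.14 and 3.50, -1.07). Of 50 measured cell cycle genes none was counted, 43 lay below 0 and the median was -0.38. The cyclin gene Ccnb2 had the largest fall, with 3.53 and 8.04, and the replication licensing gene Cdt1 the highest value, with 8.93 and 4.56 (0.84). At an FPKM of at least 5 in either library the cell cycle median was -0.06.

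Outside these lists, the largest falls included the interferon-induced gene Ifi27l2b (1.18 with QNZ and 7.20 without, from 17 and 117 reads), the receptor tyrosine kinase ligand gene Alkal1 (5.64 and 17.8) and the surface antigen gene Ly6c1 (12.1 and 35.3). Lyz2, a lysozyme gene used here as a macrophage marker, had 1.62 and 6.28, a difference of -1.48. It was the only one of the 3 measured macrophage and blood markers that was counted. Ptprc, the leukocyte antigen, had an FPKM of 0 with QNZ and 0.0184 without. Also counted as lower on the marker lists were the adhesion gene Mcam (11.1 and 28.8) and the tubulin gene Tubb3 (9.36 and 21.9).

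In fibroblasts alone, QNZ went with more counted genes than in coculture. Over the same 11141 genes, 123 were higher (1.1%) and 159 lower (1.43%), and the median difference was 0.19. This pair shares no library with the cocultured pair. Of the genes higher in coculture, 13 were also higher alone, which is 37.1% of the 35 and 10.6% of the 123. Of the genes lower in coculture, 23 were also lower alone, 26.7% of the 86 and 14.5% of the 159. No gene was counted in opposite directions. Whether the 2 pairs differ was not tested, since each condition had 1 library.

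The contractile and matrix genes had medians below 0 in both pairs. Acta2 had an FPKM of 1217 alone with QNZ and 3113 alone without, and the medians alone were -0.45 for contractile genes, with 10 counted as lower, and -0.42 for collagens and matrix, with 14. Over all measured genes alone, 1.1% were counted as higher and 1.43% as lower, and the median was 0.19. The mitochondrially encoded genes had a median of 0.88 alone, and the lysosome and autophagy genes 0.48. The medians of cholesterol synthesis were 0.79 in coculture and 0.52 alone, where 2 genes (Idi1 and Msmo1) were counted. Insig1 had 26.4 alone with QNZ and 14.4 alone without. Of the ATF4 genes 12 were counted as higher alone, with a median of 0.74.

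Interferon-stimulated genes and some chemokines had larger differences alone. There, 21 of 41 interferon-stimulated genes were counted as lower, against 1.43% of all measured genes, and the median was -1.01, against 0.19. In coculture 0 of 41 were counted, against 0.772% of all measured genes, and the median was -0.15, against 0.05. Isg15, a ubiquitin-like antiviral protein gene, had an FPKM of 875 alone with QNZ and 2159 alone without, and 313 and 344 in coculture. The chemokine gene Cxcl10 had 38.3 alone with QNZ and 175 alone without, and 50.8 and 53.3 in coculture. Both genes are named after their values were seen. The NF-κB target genes had a median of -0.17 alone, with 2 counted as lower.

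**Figure D4:**
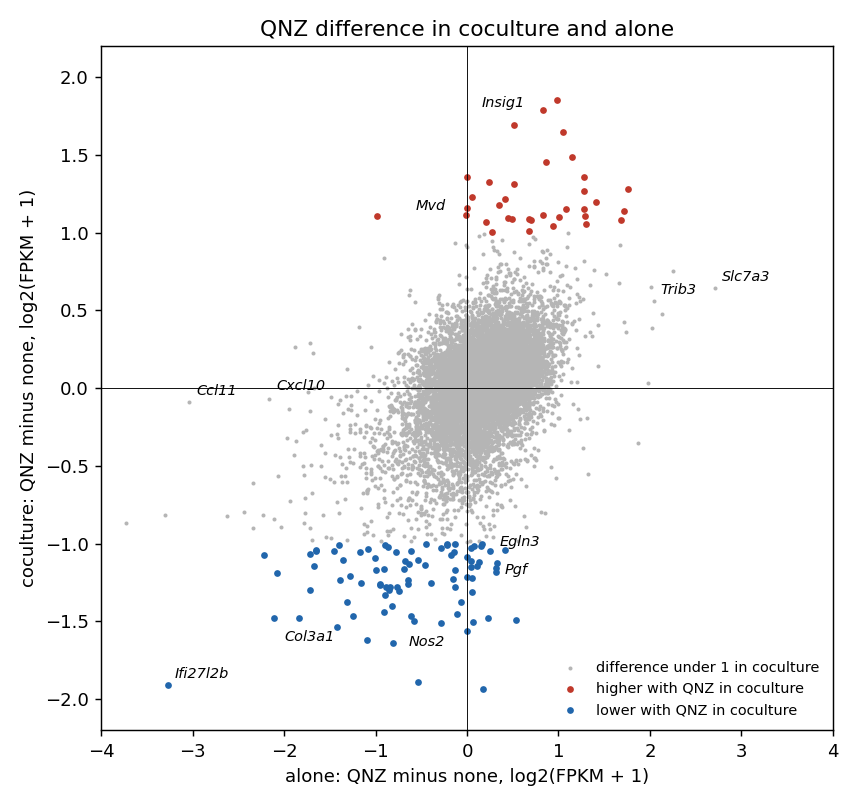
Difference of log2(FPKM + 1), QNZ minus none, in coculture (vertical) and in fibroblasts alone (horizontal) for the 11141 genes, with the genes counted in coculture in red and blue. Of the 35 higher genes 31 and of the 86 lower genes 64 have the same sign alone, while Pgf and Egln3 lie on the other side of 0.

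The median difference varied little with gene length in coculture, but the counted genes were more often short. Across genes, Spearman's rho between the difference and gene length was 0.08, and in 10 groups by length the median was -0.03 in the shortest and 0.07 in the longest. Alone, rho was 0.33, and these medians were -0.06 and 0.33. In coculture the shortest group, of 1115 genes, held 10 of the 35 higher and 26 of the 86 lower genes. The longest group, of 1114 genes, held 1 and 6. The part of gene length in the list differences was not tested beyond removing the trend.

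**Figure D5:**
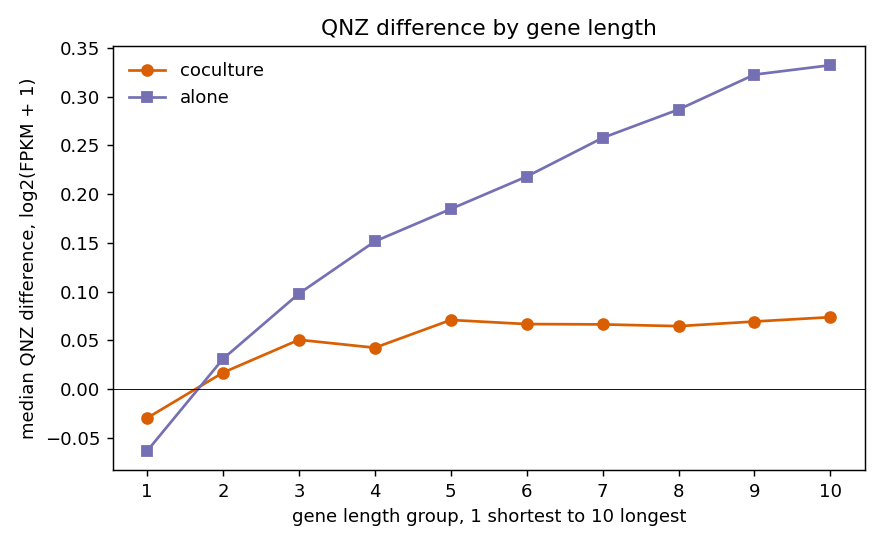
Median difference of log2(FPKM + 1), QNZ minus none (vertical), in 10 groups of genes from shortest to longest (horizontal), in coculture and alone. In coculture the medians run from -0.03 in the first group to 0.07 in the last, and alone from -0.06 to 0.33.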

How the data were processed

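RNA-seq libraries of mouse embryonic fibroblasts, 1 per condition, were made with a stranded kit and sequenced on an Illumina HiSeq. Per the labels, alignment to mm10 used STAR 2.5.4b, and expression values Cuffnorm from Cufflinks 2.2.1. The read counter, annotation version and strand setting were not given in the sources used here. The authors deposited 1 table of 21862 gene IDs with a raw read count and an FPKM per library. Each deposited FPKM was checked against its count divided by gene length and column total, and 0 IDs differed by more than a relative tolerance of 1e-06. No column was left without a sample. Total counts were 13153696 and 14872767 reads for cocultured fibroblasts with and without QNZ, and a count of 0 allows up to 0.228 and 0.202 CPM.

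Values of 23 symbols with more than 1 ID were summed. Genes reaching an FPKM of 1 in either cocultured library were kept, the scale was log2(FPKM + 1) with a pseudocount of 1, and a difference of at least 1 was counted. With 1 library per condition no p-value or measure of spread is given. The only fit was the smooth curve of the difference on gene length that was subtracted to remove that trend. Scripts used Python 3 with pandas, scipy and statsmodels and were tested on simulated data.

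Counts and medians were taken for 41 gene lists and the 1 added later, except skeletal muscle markers, of which none was measured. Not all lists are described above, and those left out had no counted member in coculture. Among these were YAP and TEAD targets (median -0.19), p53 targets (0.18) and cytosolic ribosomal proteins (-0.17, 67 of 70 below 0). The members and lists were chosen with earlier results of these data known. Named genes were the 10 largest rises and 10 largest falls among genes reaching an FPKM of 5 whose counting interval did not include 1, leaving out predicted genes and pseudogenes, the counted members of each list (or else the 4 largest differences, 6 for the NF-κB lists), and 6 genes that the study names, Dkk1, Runx2, Sp7, Bglap, Yap1 and Gapdh. Of the gene IDs, 21845 were in GENCODE M21, 21749 of them at the same position. The alternatives were pseudocounts of 0.1 and 5, a filter at 5 or none, median-of-ratios scaling, TPM, sizes of 0.5 and 2, the gene ID with the most reads per symbol, the trend with length removed, and the counting interval as a condition. Totals without mitochondrially encoded reads were added after the data were seen. Some genes that the rule would name are not reported here.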

Additional observations from a re-analysis of the deposited data

Results flagged for a closer look

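Of the named genes counted in coculture, 2 went in opposite directions with QNZ in coculture and alone, with a counting interval that did not include 1 in either pair. The placental growth factor gene Pgf had a difference of -1.16 in coculture and of 0.31 alone, where its FPKM was 3.60 with QNZ and 2.71 without (ratio 1.33, 1.05 to 1.70). The oxygen sensor gene Egln3 had -1.05 in coculture and 0.26 alone, where it had 14.4 and 11.9 (ratio 1.21, 1.07 to 1.37). The difference between the pairs was not tested, since each condition had 1 library, and neither gene reached the counted size alone.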

How the results depend on the processing

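The numbers of higher and lower genes depend on the pseudocount and on the size that is counted. The 35 higher and 86 lower genes became 87 and 206 with a pseudocount of 0.1, 9 and 24 with a pseudocount of 5, and 126 and 284 with FPKM rescaled to TPM, which raises every value over the same pseudocount. At a size of 0.5 they were 329 and 537, and at a size of 2 there were 0 and 0. The filters, the other scalings, the choice of gene ID, the counting interval and the removal of the length trend kept both counts within 1.5 times. The median of the NF-κB target genes stayed between -0.27 and -0.16 under the 9 alternatives that bear on it. Removing the length trend brought rho with length to 0.000863, as its construction does. With a pseudocount of 5, 4 cholesterol synthesis genes were counted as higher, and 3 contractile genes and 3 matrix genes as lower. Of the values for lists and single genes under that pseudocount, 70 moved by more than counting error (for counts, by over 1.5 times) and 191 did not. No named gene that was counted changed sign, but 23 of 49 still reached a size of 1 with a pseudocount of 5. No paired analysis was possible because each condition had 1 library and the labels give no replicate numbers. Depth limits low genes such as Dkk1 and Bglap.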
